A study of Mus musculus with 12 samples.

Results

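The aminoacyl-tRNA synthetases were followed in the gastrocnemius muscle of male germ-free ICR mice (strain Tsl;ICR[GF]) that had received feces from trained donors (RT, n = 6) or from sedentary donors (RS, n = 6). Both groups were 11 weeks old by the labels, ate a high-fat diet, received feces by gavage and were sampled 1 week after the first gavage, and 1 microarray was hybridized per mouse. By the methods, recipients shared cages and the feces they were gavaged with did not differ within a group, so donor training, the fecal sample and the cage cannot be told apart, and p-values measure only the spread between these mice. Members were the transcript clusters, the gene-level units of the array, whose only annotated symbol names a synthetase: 35 transcript clusters for 34 genes, of 28944 transcript clusters and 19938 genes in all. They fell into 18 genes for cytosolic enzymes and 16 for mitochondrial enzymes. Aars was not analysed here, because its transcript cluster also carries the symbol Exosc6, and Dars was not analysed here either. In this bulk tissue, fewer cells of a type and less RNA per cell cannot be told apart.

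Each synthetase joins 1 amino acid to its own tRNA and so sets what a codon is read as. Animal cells keep one set for the cytosol and another, also encoded in the nucleus and imported, for the mitochondrial ribosome. Gars and Kars supply both compartments from 1 gene each, and Eprs carries the glutamate and proline enzymes in 1 chain. Several cytosolic enzymes sit in the multisynthetase complex, held by the scaffold proteins Aimp1, Aimp2 and Eef1e1. Many cytosolic synthetase genes are known targets of ATF4, the transcription factor of the amino acid response, which acts with C/EBP proteins on a composite DNA element.

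To show where that element lies, the promoter stretches of the synthetase genes that carry it are printed here, followed by those of mitochondrial genes with the core of the site for NRF-1, a factor known for nuclear genes of mitochondrial proteins. Sequences are from RefSeq (build GRCm38.p6), read 5′ to 3′ on the strand of the gene, in windows of 250 bases before to 50 bases after the annotated start, and 25 of the 34 genes had a window (11 cytosolic and 14 mitochondrial). Capitals mark the C/EBP-ATF response element, searched as TGATGNAA on both strands (TTNCATCA as printed where it lies on the other strand), in Gars (chr6:55037933-55038000), Tars (chr15:11399659-11399726), Iars (chr13:49682126-49682155) and Yars (chr4:129189895-129189924), and the NRF-1 core CGCATGCG in Wars2 (chr3:99140997-99141064) and Vars2 (chr17:35667602-35667669).
Gars: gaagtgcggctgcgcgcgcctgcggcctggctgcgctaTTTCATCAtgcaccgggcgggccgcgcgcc
Tars: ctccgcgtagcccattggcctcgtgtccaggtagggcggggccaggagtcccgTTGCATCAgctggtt
Iars: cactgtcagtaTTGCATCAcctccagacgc
Yars: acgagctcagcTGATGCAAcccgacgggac
Wars2: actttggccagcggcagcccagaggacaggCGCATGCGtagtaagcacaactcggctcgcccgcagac
Vars2: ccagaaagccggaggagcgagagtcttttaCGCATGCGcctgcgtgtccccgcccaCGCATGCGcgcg

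The C/EBP-ATF element was found in 4 of 11 cytosolic windows (36.4%), in 0 of 14 mitochondrial genes, and in 4.51% of all 27025 genes with a window. Counted from the start site, it began at base -30 in Gars and at base -15 in Tars, whereas in Yars and Iars it began just inside the transcribed part, at bases 4 and 8. The NRF-1 core was in 2 of 14 mitochondrial genes and in 0 of 11 cytosolic genes, against 2.07% of all genes. An E-box (CACGTG) was present in Iars, Tars, Farsb and Ears2 (8.09% of all genes), and the ETS site CCGGAAGT or its complement in Farsa, Mars1 and Rars2 (4.31% of all genes). The letters of these motifs do not overlap in any printed stretch. Such matches describe the sequence alone, and binding was not measured.

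In RT muscle, 7 of the 34 synthetase genes were called higher than in RS muscle and 0 were called lower, and 27 were not called. A gene was called where its limma p was under 0.05 and, after Benjamini-Hochberg adjustment over all transcript clusters, under 0.1, and 10 genes that were higher and 0 that were lower had an unadjusted p under 0.05. The unmoderated test that the methods name called 4 genes higher (Rars, Gars, Hars and Lars2, the last of them in place of Iars2 as the only mitochondrial call) and 0 lower, with 12 higher and 2 lower at an unadjusted p under 0.05. The 7 comprised 6 of 18 cytosolic genes (Rars, Gars, Qars, Tars, Iars and Hars) and 1 of 16 mitochondrial genes (Iars2). Over all genes, 13.9% were called higher and 10.7% lower. The mean signal of 33 synthetase genes was above the middle of the array, and among all such genes 22.9% were called higher and 6.82% lower, so the share of synthetases called higher (20.6%) was close to that background. For cytosolic genes the share was 33.3% and for mitochondrial genes 6.25%. The mitochondrial genes were dimmer, with mean log2 signals of 3.72 to 6.96 against 5.43 to 8.20. Centering each array on its median gave 7 cytosolic and 6 mitochondrial genes called higher, and quantile normalization gave 2 and 0. The difference between the compartments in this share was not tested.

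**Figure D1:**
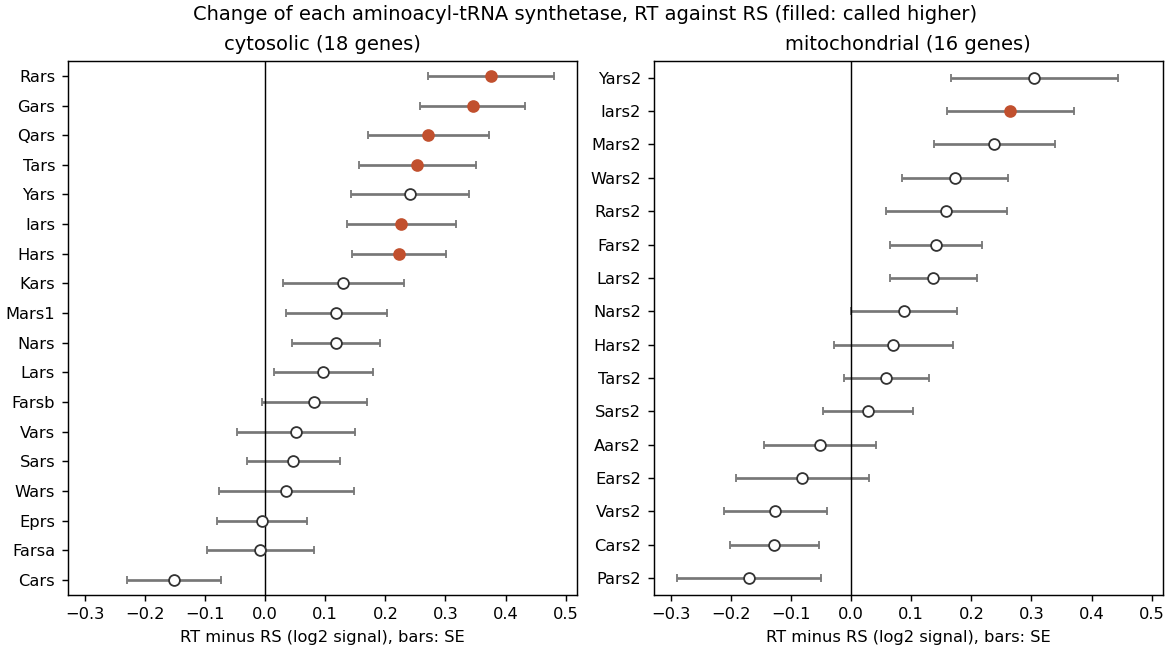
Change of each synthetase gene, RT minus RS in log2 signal, with its SE (6 mice a group), for 18 cytosolic genes on the left and 16 mitochondrial genes on the right, ordered by change. Filled points are the 7 genes called higher; changes run from -0.17 to 0.38.

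The changes were small. The median over the 34 genes was 0.11 on the log2 scale, with 0.12 for cytosolic and 0.08 for mitochondrial genes, against 0.01 over all genes, and the sign was positive in 26 of the 34 synthetase genes and in 51.3% of all genes. All genes are not a match in brightness, because 33 synthetase genes lay above the middle of the array. There, 22.9% of genes were called higher and 6.82% lower, and their median change and sign were not computed. The positive median of the cytosolic synthetase genes depended on scaling. Quantile normalization of the deposited values turned it to -0.0052 and cyclic loess turned it to -0.021. When each array was instead centered on its median, 20.3% of all transcript clusters were called higher and 8.34% lower, where the deposited scaling gave 11.9% and 13.0%. With that centering 13 of the 34 synthetase genes were called higher, 7 of them cytosolic, and the cytosolic median was 0.19.

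Among the cytosolic enzymes, each taken by its brightest transcript cluster, the largest change belonged to Rars (10385159), the arginyl enzyme of the multisynthetase complex. The lowest, median and highest log2 signals of Rars were 7.25, 7.42 and 7.54 in RT mice and 6.63, 7.09 and 7.29 in RS mice. Its change was 0.38 ± 0.11 (SE, limma adjusted p = 0.0265), a 1.3-fold higher signal. In Rars, 5 RT mice lay above all RS mice, and only RT-5 fell within the RS range.

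Gars (10538420), the glycyl enzyme, whose human counterpart is mutated in an inherited motor neuropathy, had log2 signals of 7.74, 7.88 and 7.97 (lowest, median, highest) in RT mice and 7.23, 7.54 and 7.66 in RS mice. Its change was 0.35 ± 0.09 (SE, limma adjusted p = 0.0172). Gars was 1 of the 2 synthetase genes in which every RT mouse was above every RS mouse, a separation found in 3.36% of all genes. The exact permutation p of 0.00216 (two-sided, unadjusted) is the smallest that 6 against 6 mice can give.

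Hars (10458398), the histidyl enzyme, known as an autoantigen in human inflammatory muscle disease, was the other such gene. Its signals were 6.51, 6.60 and 6.67 (lowest, median, highest) in RT mice and 6.12, 6.40 and 6.50 in RS mice, and the change was 0.22 ± 0.08 (SE, limma adjusted p = 0.0621). The gap between the groups was narrow, since the lowest RT and the highest RS mouse differed only in the second decimal, and RS-6 lay far below the other RS mice.

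Qars (10589004), the glutaminyl enzyme of the complex, had signals of 6.91, 7.01 and 7.18 (lowest, median, highest) in RT mice and 6.46, 6.78 and 7.0 in RS mice, with a change of 0.27 ± 0.10 (SE, limma adjusted p = 0.0761). Tars (10427772), the threonyl enzyme, had signals of 6.36, 6.55 and 6.68 in RT mice and 5.93, 6.31 and 6.49 in RS mice, with a change of 0.25 ± 0.10 (SE, limma adjusted p = 0.0848). In both genes the groups overlapped, and 4 RT mice were above all RS mice. RS-1 and RS-2 were within the RT range of both genes.

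Iars, the isoleucyl enzyme of the complex, had 2 transcript clusters annotated with its symbol. The brighter one (10405094), which stood for the gene, had signals of 7.61, 7.76 and 7.97 (lowest, median, highest) in RT mice and 7.33, 7.51 and 7.82 in RS mice, with a change of 0.23 ± 0.09 (SE, limma adjusted p = 0.0981). The other (10345025) had signals of 7.14, 7.32 and 7.58 in RT mice and 6.28, 6.92 and 7.34 in RS mice, with a change of 0.44 ± 0.14 (SE, limma adjusted p = 0.0463). Both were called higher, and the groups overlapped in both, with RS-1 well within the RT range. Across the 12 mice the pair had a correlation of 0.69 after removal of the group means. The size of the change therefore differed between the 2 transcript clusters annotated as Iars, while the direction did not. Where each lies in the genome, and so whether both read the Iars gene itself, was not examined.

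**Figure D2:**
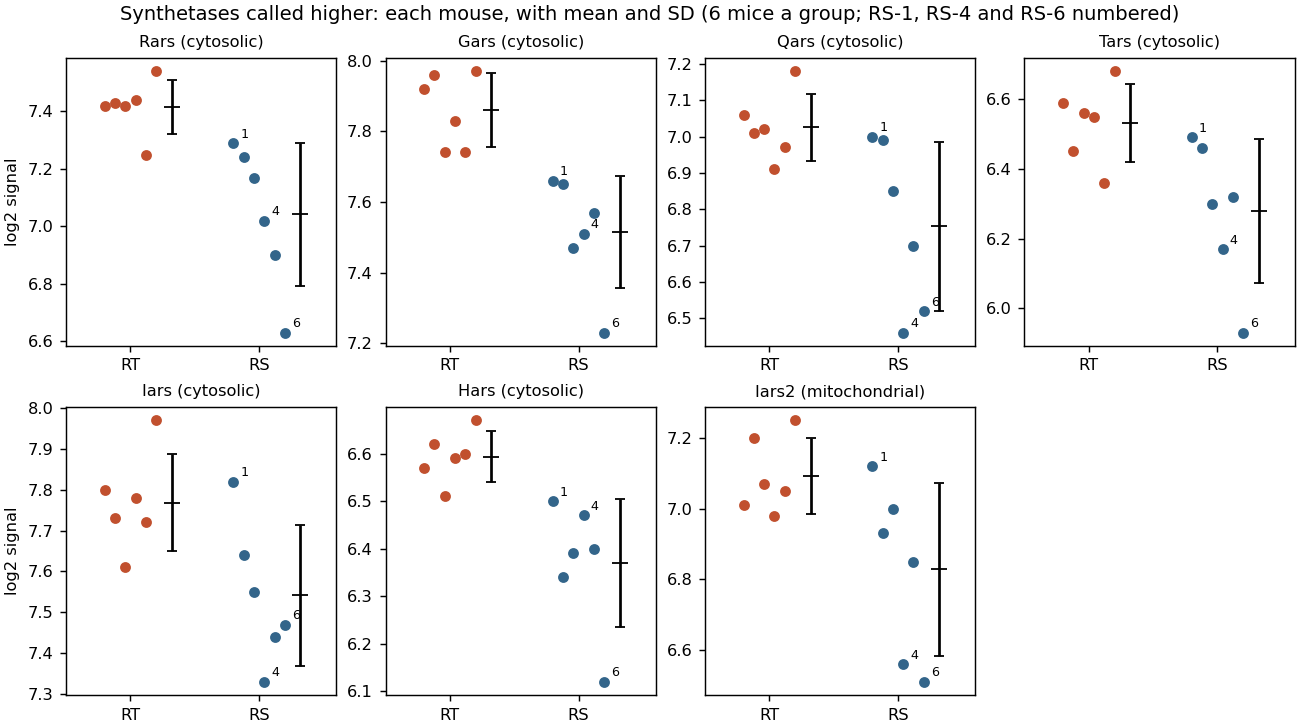
Log2 signal of the 7 called synthetases in each mouse, RT left and RS right, with the mean and SD of the 6 mice of a group; RS-1, RS-4 and RS-6 are numbered. The groups separate in Gars and Hars and overlap in the other 5, and RS-6 is the lowest RS mouse in all panels but Qars and Iars, where RS-4 is lowest.

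The mitochondrial isoleucyl enzyme Iars2 (10360884) was the only mitochondrial synthetase called by limma. Its signals were 6.98, 7.06 and 7.25 (lowest, median, highest) in RT mice and 6.51, 6.89 and 7.12 in RS mice, and the change was 0.27 ± 0.11 (SE, limma adjusted p = 0.0942). In Iars2, 2 RT mice were above all RS mice, and RS-4 and RS-6 lay well below the rest. Among amino acids with a separate gene for each compartment, isoleucine was thereby the 1 for which both were called higher, and Gars, also called, serves both compartments with glycine.

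Besides these 7, another 3 genes had an unadjusted p under 0.05 without reaching the adjusted threshold. Yars, the cytosolic tyrosyl enzyme, had a change of 0.24 ± 0.10 (SE, limma adjusted p = 0.10), just outside it, as Iars was just inside with 0.0981. Yars2, the mitochondrial tyrosyl enzyme, whose human counterpart is mutated in a mitochondrial myopathy with anemia, had a change of 0.31 ± 0.14 (SE, limma adjusted p = 0.138). Its RS mice spread from 5.11 to 6.00 and enclosed all RT mice (5.68 to 5.98). Mars2, the mitochondrial methionyl enzyme, had a change of 0.24 ± 0.10 (SE, limma adjusted p = 0.114), and 5 RS mice lay below all RT mice.

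Of the other cytosolic genes, the bifunctional Eprs and the phenylalanyl subunit Farsa had changes of -0.005 and -0.0083. Their 95% intervals, -0.16 to 0.15 for Eprs and -0.20 to 0.18 for Farsa, ended below the change of Hars, the smallest among the called genes. Wars, the tryptophanyl enzyme known to be induced by interferon, had a change of 0.04 (interval -0.20 to 0.27). Lars, the leucyl enzyme that also takes part in leucine sensing, had a change of 0.10 (interval -0.08 to 0.27). The values for Kars, Mars1, Nars, Farsb, Vars and Sars were between 0.05 and 0.13. Cars, the cysteinyl enzyme, had the lowest cytosolic value, -0.15 ± 0.08 (SE, limma adjusted p = 0.185), with signals of 6.48, 6.58 and 6.70 in RT mice and 6.58, 6.74 and 6.91 in RS mice. The groups of Cars overlapped in part, and the gene was called lower only with quantile normalization or cyclic loess of the deposited values, where the loess change was -0.28 (limma adjusted p = 0.037).

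Among the mitochondrial genes not called, Wars2, Rars2, Fars2, Lars2, Nars2, Hars2, Tars2 and Sars2 had values between 0.03 and 0.17. Aars2, Ears2, Vars2, Cars2 and Pars2 had values between -0.17 and -0.05. The lowest of these, Pars2, the mitochondrial prolyl enzyme, was the dimmest member, with a mean log2 signal of 3.72, and its 95% interval ran from -0.42 to 0.08. Vars2 and Wars2, whose promoters are printed with the NRF-1 core, had values of -0.13 and 0.17, neither of them called. In Cars2, the mitochondrial cysteinyl enzyme, the change was -0.13 (limma adjusted p = 0.24), and 0 RT mice were above the RS mean. In the cytosolic Cars, 0 RT mice were above it as well. The exact permutation p (two-sided, unadjusted) was 0.013 for Cars2 and 0.0281 for Cars, where the unadjusted limma p was 0.102 and 0.0675. Uncalled genes with a positive change also had a permutation p under 0.05: Lars2 (0.0152), Yars (0.0238), Nars (0.0346), Fars2 (0.0368) and Mars2 (0.0411).

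Grouped by structure and role, called genes were found in each group of cytosolic enzymes. In the multisynthetase complex 3 of 7 measured cytosolic synthetases rose (Rars, Qars and Iars) and 4 were not called, and outside it 3 of 11 rose (Gars, Tars and Hars). The complex scaffolds Aimp1, Aimp2 and Eef1e1 had values of -0.07, 0.33 and 0.18, with 0 of 3 called and 0 with an unadjusted limma p under 0.05. By catalytic fold, 3 of 9 cytosolic class I and 3 of 8 class II enzymes rose, with Eprs, which holds both folds, counted in neither. Of cytosolic genes known as amino acid response targets 3 of 11 rose, and of the other cytosolic genes 3 of 7. By promoter, 3 of the 4 called cytosolic genes with a window held the C/EBP-ATF element (Gars, Tars and Iars, but not Qars), as did Yars alone of the 7 that were not called. The shares of genes called higher stand beside 13.9% over all genes and 22.9% over those above the middle of the array. They are counts over few genes, and no difference between them was tested.

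**Figure D3:**
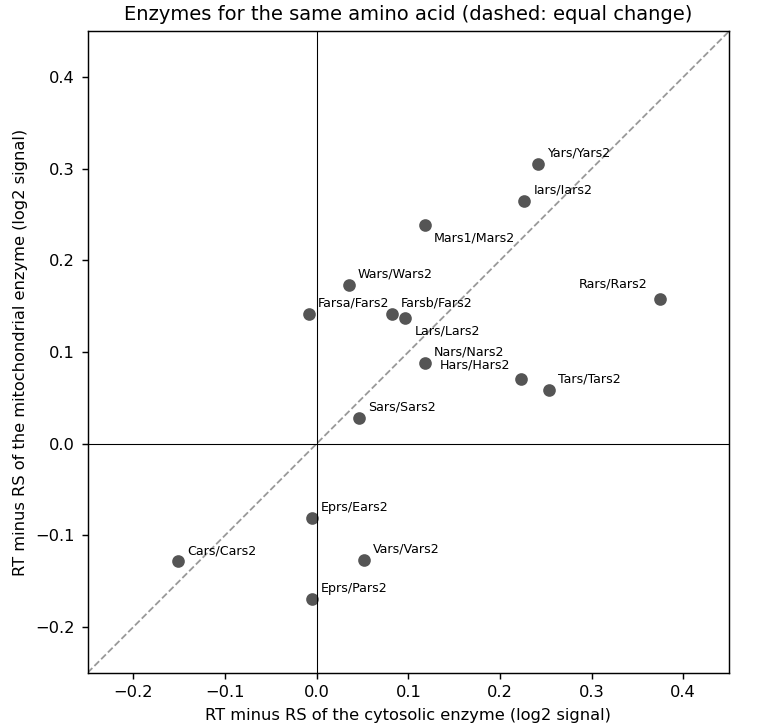
Change of the cytosolic enzyme (horizontal) against that of the mitochondrial enzyme (vertical) for 16 pairs that serve the same amino acid, both RT minus RS in log2 signal; the dashed line marks equal change. The pairs Rars/Rars2 and Tars/Tars2 lie to the right of the line, Iars/Iars2 and Yars/Yars2 near it.

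Because both enzymes of an amino acid were measured in each mouse, the within-mouse difference, cytosolic minus mitochondrial, could be compared between RT and RS for 16 pairs covering 15 amino acids. With the sign of each change kept, the value of the cytosolic gene was the higher one in 8 pairs and that of the mitochondrial gene in 8, and the median change of the difference was -0.0025. For arginine (Rars and Rars2) the difference was 0.22 higher in RT mice (exact permutation p = 0.0433), and for threonine (Tars and Tars2) it was 0.20 higher (exact permutation p = 0.039). For phenylalanine (Farsa and Fars2) the difference had a change of -0.15 (exact permutation p = 0.0455), while for the other subunit of the cytosolic enzyme (Farsb and Fars2) it was -0.06 (exact permutation p = 0.444). These 3 pairs had a p under 0.05 of the 16 compared, two-sided and unadjusted. In the other 13 pairs, tyrosine and isoleucine among them, the smallest p was 0.184 (histidine).

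The mice differed within their groups, and RS mice more than RT mice. RS-6 had the lowest signal of all 12 mice in 14 of the 34 genes, 9 of them cytosolic, and RS-4 in 7. RT-6 had the highest signal in 12 genes. Averaged over the 18 cytosolic genes, each centered on its mean, the level was between 0.0015 and 0.19 in RT mice and between -0.25 and 0.10 in RS mice. RS-1 stood at 0.10, above 4 of the RT mice. The same average for the mitochondrial genes was between 0.00036 and 0.06 in RT mice and between -0.10 and 0.04 in RS mice, so that the groups overlapped for both compartments.

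**Figure D4:**
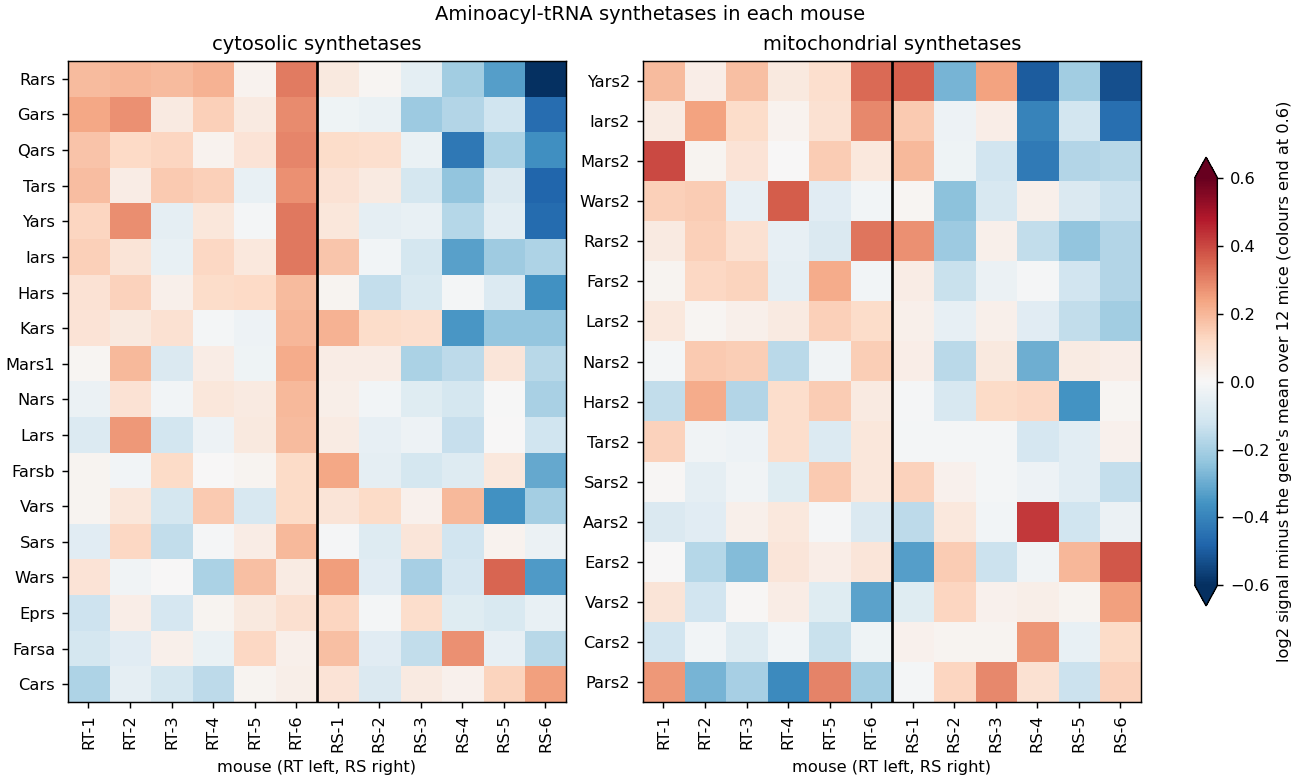
Log2 signal of each of the 34 synthetase genes minus its mean over the 12 mice, RT mice left and RS mice right of the line, cytosolic genes in the left panel and mitochondrial genes in the right; colors end at 0.6 above and below the mean. RS-6 and RS-4 are blue in most of the upper rows, RT-6 is red there, and RS-1 resembles the RT columns.

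RS-4 and RS-6 also stood apart over the whole array. Median log2 signals lay between 4.40 and 4.63 on the 12 arrays, and the spread of the signals on an array, as their SD, was lowest for RS-4 (1.97) and RS-6 (1.99), against 2.06 to 2.15 for the other mice. Without both mice, Rars (0.27 ± 0.09, limma adjusted p = 0.0943) and Gars (0.27 ± 0.08, limma adjusted p = 0.0612) were still called, and the other 5 genes were not. With the SD of each array as a covariate 0 synthetases were called in limma, 1 had an unadjusted p under 0.05 (Gars), and Rars had a change of 0.21 (limma adjusted p = 0.295) and Gars of 0.24 (limma adjusted p = 0.176). In that fit 2.53% of all transcript clusters were called higher and 3.07% lower. Of the 24 alternatives run, Rars and Gars lost their call only in the covariate fit, and Hars lost its call in 9, Qars in 13, Tars in 16 and Iars and Iars2 in 17 each.

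**Figure D5:**
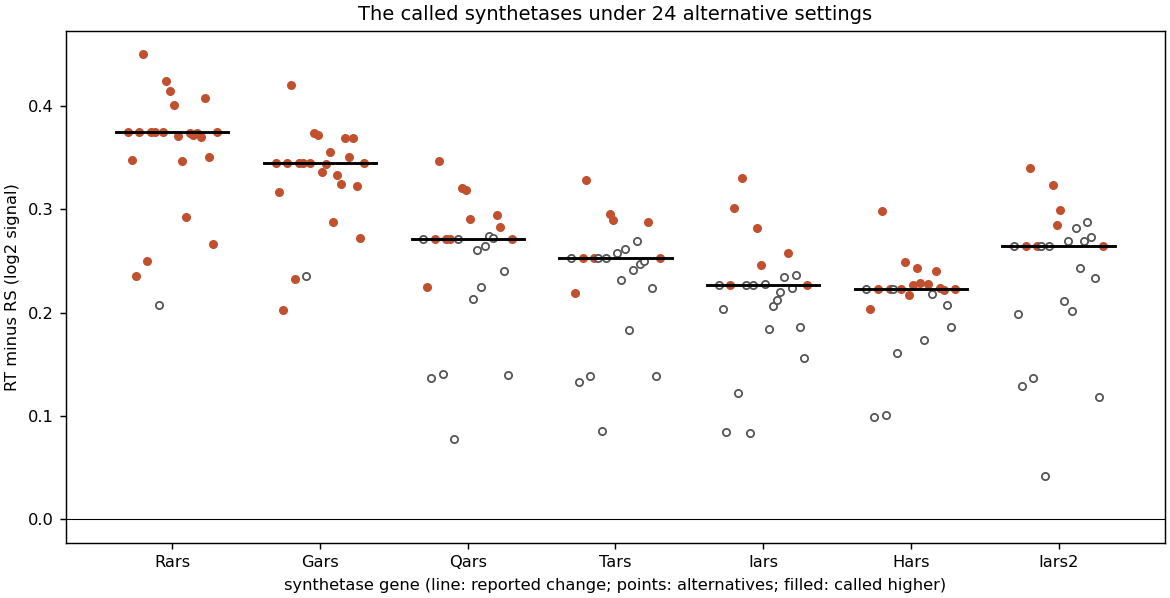
Change of the 7 called synthetases, RT minus RS in log2 signal, as reported (line) and under each of 24 alternatives (points; filled where the gene was called higher). All values stay above 0; Rars and Gars have 1 open point each and Iars2 17.

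Genes of non-muscle cells moved with the groups as well. All 6 macrophage markers were called higher, with a mean level of 5.76 to 6.24 in RT mice and 4.90 to 5.48 in RS mice. The 5 fibroblast markers (8.31 to 8.80 in RT mice, 6.89 to 8.31 in RS mice), the 5 endothelial markers (7.02 to 7.41 in RT mice, 6.31 to 7.02 in RS mice) and the 5 tendon markers (6.92 to 7.35 in RT mice, 5.53 to 6.90 in RS mice) were all called higher, as were 4 of 6 adipocyte markers. The 9 fast muscle markers were brighter than 99.7% of transcript clusters, and whether a change shows at such signals was not tested. Their mean level was 12.4 to 12.6 in RT mice and 12.3 to 12.6 in RS mice. By limma, 0 of the 9 were called and 0 had an unadjusted p under 0.05. The same held for the 5 slow muscle markers, whose median change was -0.46. Averaged over these 5 markers, each centered on its mean, RT-6 stood at -2.07. The other RT mice lay between -0.28 and 0.68, and the RS mice between -0.71 and 1.05. Of the plasma and B cell, Schwann and satellite cell markers, 1 each was called lower and 1 Schwann marker higher. Over all genes, 13.9% were called higher and 10.7% lower, and above the middle of the array 22.9% and 6.82%. The part of these cells in the synthetase changes was not tested.

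Genes with other roles in tRNA handling were counted in the same way. Over all genes, 13.9% were called higher and 10.7% lower. Most of the tRNA genes lay above the middle of the array, where 22.9% of genes were called higher and 6.82% lower. A share near these says nothing particular about tRNA genes. Of 3 measured genes that charge tRNA outside the rule, Sepsecs, which makes selenocysteine on its tRNA, rose by 0.22 (limma adjusted p = 0.0741), and the second threonyl gene Tarsl2 had a value of 0.11. Of 9 measured genes for quality control of charged tRNA and mitochondrial amidation, 1 rose: Gatc, a subunit of the mitochondrial glutamyl-tRNA amidotransferase, by 0.53 (limma adjusted p = 0.0159). Of 15 measured genes for tRNA maturation and export, 4 rose: Clp1, a kinase of the splicing endonuclease complex, by 0.38 (limma adjusted p = 0.0926), Trnt1, which adds the CCA end, by 0.27 (limma adjusted p = 0.0725), the ligase Rtcb and the exportin Xpot. Of 4 selenocysteine genes Sephs1 rose, by 0.39 (limma adjusted p = 0.0405).

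The amino acid response genes outside the synthetases did not move one way. Of 28 measured, 2 rose and 2 fell, with a median of 0.0033. Neither share was larger than over all genes (13.9% higher, 10.7% lower). Most of the 28 lay above the middle of the array, where 22.9% of genes were called higher and 6.82% lower. Slc3a2, the heavy chain of amino acid exchangers, rose by 0.49 (limma adjusted p = 0.0086), and Shmt2, the mitochondrial serine hydroxymethyltransferase, by 0.32 (limma adjusted p = 0.0378). Phgdh, the first enzyme of serine synthesis, fell by 0.93 (limma adjusted p = 0.00383), and the stress factor Atf3 fell by 0.77 (limma adjusted p = 0.0806). Atf4 itself, whose protein is known to be controlled mainly at translation, had a change of -0.04 ± 0.08 (SE), and Asns, asparagine synthetase, one of 0.12 ± 0.09 (SE), neither called. Of 12 measured kinases and regulators of eIF2, the initiation factor upstream of ATF4, 2 rose, Eif2ak1 by 0.32 (limma adjusted p = 0.0495) and Ppp1r15b by 0.31 (limma adjusted p = 0.0199), named after their values were seen. The protein and the charging of tRNA were not measured.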

How the data were processed

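The deposited matrix holds log2 signals of Affymetrix Mouse Gene 1.0 ST arrays, 12 arrays for 12 mice, which the authors normalized by robust multi-array average (RMA); the methods also name its SST-RMA variant. Gene symbols came from the platform annotation, and the brightest transcript cluster stood for a gene. The array's genome build is not given in the sources used here, and the number of arrays limits the precision. RT and RS were compared with limma 3.58.1 (lmFit, eBayes; R 4.3.3), two-sided, without covariates. Exact permutation tests of single values used all 924 splits of the mice. Every adjusted p of a single gene is from limma. The script was tested on simulated data.

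Values are given in full for called members (up to 6 rises and 6 falls per compartment), and up to 2 called genes per direction are given for other lists. The members and lists were chosen with earlier results of these data known. Alternatives were other scalings, a filter on dim transcript clusters, a one-way ANOVA without moderation, other eBayes settings and array weights. Others were the replicate number as a block, array spread as a covariate, leaving out mice, a stricter threshold and averaging each gene's transcript clusters. Promoter sequences were matched by gene identifier, and Cars, Hars, Hars2, Lars, Nars, Pars2, Rars, Vars and Wars had none.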

Additional observations from a re-analysis of the deposited data

How the results depend on the processing

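Of 24 alternatives, 6 cytosolic and 1 mitochondrial gene called higher became 2 and 0 with quantile normalization or cyclic loess, with 1 cytosolic gene (Cars) lower in each. The cytosolic and mitochondrial medians were then -0.0052 and 0.025 (quantile) and -0.021 and 0.026 (loess). Centering each array on its median gave 6 mitochondrial calls and a mitochondrial median of 0.15, and leaving out the dimmest 33.3% of transcript clusters gave 2 mitochondrial calls. A one-way ANOVA without moderation called 3 cytosolic genes and, of the mitochondrial ones, Lars2 but not Iars2. Array weights called 0 mitochondrial genes. The replicate block called 3 cytosolic genes higher and 1 mitochondrial (Mars2). The replicate numbers are not said to pair mice. After removal of the group means, same-numbered mice had correlations of -0.24 to 0.11 over 6 pairs, and 1 mouse was closest to its own number. Whether same-numbered mice shared a batch was not tested. With array spread as a covariate, 0 cytosolic and 0 mitochondrial genes were called, and Yars2 turned to -0.0095. Without both RS-4 and RS-6, or at an adjusted p under 0.05, 2 cytosolic and 0 mitochondrial genes were called.

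Leaving out 1 mouse at a time gave 2 to 7 cytosolic and 0 to 4 mitochondrial calls higher. The fewest cytosolic calls (2) came without RS-6, RT-2 or RT-6, and 3 came without RS-4, RS-5 or RT-1. The most mitochondrial calls (4) came without RS-1. Over the whole array, the transcript clusters called higher and lower were 5883 and 2414 with median centering, 732 and 888 with the spread covariate, 1649 and 1791 without RS-4 and RS-6, and 2092 and 2307 at the stricter threshold, against 3445 and 3764 as reported. The causes of these shifts were not tested.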
